A study of Mus musculus with 20 samples.

Results

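Genes of glutathione, thioredoxin and related antioxidant enzymes were described in the left ventricle of 20 male C57BL/6 mice, 1 Affymetrix Mouse Gene ST array per mouse. Of 39 genes listed for this group, 38 had a transcript cluster, the array's summary of a gene's probes, that the platform annotation assigned to exactly 1 gene symbol, out of 19937 genes with such a cluster. G6pdx had none and was not analysed here. Where a gene had several such clusters, the brightest stood for it. The mice formed 4 groups: FA-DOXO (n = 6), DOXO (n = 6), FA-sham (n = 4) and sham (n = 4). DOXO and FA-DOXO mice received doxorubicin (DOXO), an anthracycline that damages the heart, as a single intraperitoneal injection of 20 mg/kg, and the sham groups received saline. FA-DOXO and FA-sham mice were given folic acid (FA), 10 mg daily, which began 7 days ahead of the injection and ended with the experiment at day 10, and DOXO and sham mice were given a placebo. All were 2 months old by their labels. Ventricle tissue holds several cell types, so fewer cells of a type and less RNA per cell cannot be told apart.

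Glutathione is a small thiol made by glutamate-cysteine ligase (Gclc and Gclm) and glutathione synthetase (Gss). Peroxidases spend it on peroxides, transferases couple it to reactive molecules, and glutathione reductase (Gsr) restores it with NADPH. The thioredoxin system, with its reductases and peroxiredoxins, works in parallel. Many of these genes are known targets of NRF2 (Nfe2l2), a transcription factor that KEAP1 marks for degradation until oxidants or electrophiles release it. Doxorubicin is a quinone that redox enzymes can cycle to give superoxide, and heart muscle, rich in mitochondria, is known to be sensitive to it.

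The promoters of Gclm, Mgst1 and Nqo1 are shown because these 3 genes had the smallest p in the comparison of DOXO with sham. Each window is 300 bases, from 250 before to 50 after a RefSeq transcript start (GRCm38.p6), and capitals mark a match to TGACNNNGC, the core of the antioxidant response element that NRF2 binds, searched on both strands. The Gclm window lies at chr3:122245307-122245606 on the plus strand, the Mgst1 window at chr6:138140277-138140576 on the plus strand and the Nqo1 window at chr8:107403156-107403455 on the minus strand.
Gclm: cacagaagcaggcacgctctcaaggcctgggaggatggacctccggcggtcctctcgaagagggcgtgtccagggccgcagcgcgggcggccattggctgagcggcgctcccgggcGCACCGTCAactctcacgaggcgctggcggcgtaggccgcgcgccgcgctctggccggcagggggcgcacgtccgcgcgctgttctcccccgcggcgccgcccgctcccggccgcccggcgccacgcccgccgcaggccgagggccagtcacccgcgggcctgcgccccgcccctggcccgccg
Mgst1: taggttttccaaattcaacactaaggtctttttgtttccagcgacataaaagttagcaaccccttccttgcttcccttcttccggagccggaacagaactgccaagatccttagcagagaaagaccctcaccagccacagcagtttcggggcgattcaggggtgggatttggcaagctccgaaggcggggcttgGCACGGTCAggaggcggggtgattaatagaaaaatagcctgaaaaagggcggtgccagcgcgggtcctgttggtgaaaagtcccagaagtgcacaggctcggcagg
Nqo1: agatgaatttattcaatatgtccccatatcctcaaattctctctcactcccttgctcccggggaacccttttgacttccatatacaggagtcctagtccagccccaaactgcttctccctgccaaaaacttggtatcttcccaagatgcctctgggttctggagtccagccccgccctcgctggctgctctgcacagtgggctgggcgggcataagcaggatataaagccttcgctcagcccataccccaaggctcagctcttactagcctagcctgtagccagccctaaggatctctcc
The match read TGACGGTGC in Gclm, at bases 117 to 125 of the window, and TGACCGTGC in Mgst1, at bases 195 to 203, both on the strand opposite to the gene. The other Mgst1 window in the table, at chr6:138141337-138141636, held no match, and neither did that of Nqo1, which says only that these letters are absent from 300 bases. Over the members, 33 had a window and 9 of them (27.3%) a match, namely Gclm, Mgst1, Sod1, Srxn1, Txnrd1, Prdx1, Nfe2l2, Pgd and Me1, against 3781 of 27025 genes in the table (14.0%). Counted by window, it was 9 of 46 (19.6%) against 4071 of 32851 (12.4%). Of the members that were higher with DOXO at the unadjusted threshold below, in the placebo comparison or averaged over both diets, 3 of the 10 with a window held a match, against 6 of the 23 other members. Gsr, Hmox1, Gclc, Gsta4 and Sod3 had no entry in the table.

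The deposited log2 signals of these genes followed a property of the arrays, the standard deviation (SD) of all log2 signals on an array, here called the array SD. It averaged 1.04 ± 0.19 (SD, n = 6) in FA-DOXO, 1.13 ± 0.26 (n = 6) in DOXO, 0.958 ± 0.123 (n = 4) in FA-sham and 1.27 ± 0.25 (n = 4) in sham. In two-sided exact permutation tests it did not pass 0.05 between DOXO and sham (p = 0.381), FA-DOXO and FA-sham (p = 0.438), FA-DOXO and DOXO (p = 0.504) or FA-sham and sham (p = 0.0571, which over these 4 tests adjusted to 0.228). Wide arrays, with an SD above 1.1, were those of 2 FA-DOXO, 2 DOXO, 1 FA-sham and 3 sham mice. Across all 20 arrays, the signal of 33 of the 38 members was higher on wider arrays at an adjusted p below 0.05, and 1, the cystine transporter Slc7a11, was lower. Over all 34760 clusters, 29.8% were higher, 51.9% lower and 81.7% one or the other. The array SD is computed from these same signals, and brightness was not matched here, so this comparison cannot single out the members. Prdx3 and Cat were brighter on average than 94.2% and 96.4% of clusters, Slc7a11 than 22.6%. Per unit of array SD the members' median slope was 4.13 on the log2 scale, with 9.32 for Prdx3, a mitochondrial peroxiredoxin, and 8.05 for catalase (Cat). Of Gss, Gpx7, Sod3 and Txnrd2, which did not pass that threshold, none had a slope above 0.37. Of the cell type markers listed, all 10 cardiomyocyte and all 10 endothelial markers had sham means above the array medians and were higher on wider arrays, 9 of 10 macrophage markers were higher, and 9 of 9 lymphocyte markers were lower. Whether the spread comes from the tissue or from the array was not tested. Groups were therefore compared in a limma model that held the array SD as a covariate, and signals below are given at the mean array SD, which is the deposited signal moved along the gene's slope to an array SD of 1.09. The fit without the covariate is given beside them.

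**Figure D1:**
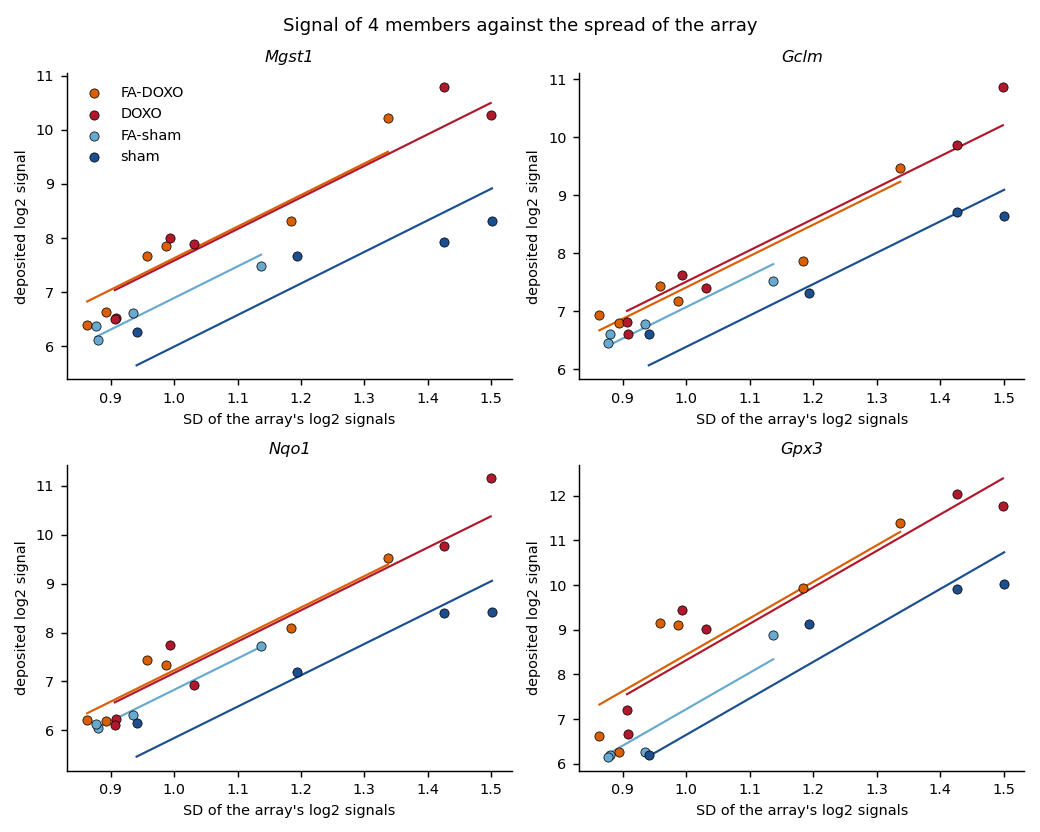
Deposited log2 signal (y axis) of Mgst1, Gclm, Nqo1 and Gpx3 against the SD of all log2 signals of the array (x axis), 1 point per mouse, coloured by group, with the fitted line of each group at a shared slope. Signals climb with the array SD in all 4 groups, the DOXO and FA-DOXO lines nearly coincide, and the sham line lies lowest, drawn through 3 arrays with an SD of 1.19 or more and 1 at 0.941.

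DOXO was first compared with sham among placebo mice. Of the 38 members, Gclm, the modifier subunit of glutamate-cysteine ligase, and Mgst1, a membrane-bound glutathione transferase that also reduces lipid peroxides, rose at an adjusted p below 0.05, and no member fell. That is 2 of 38, where 0.17% of all clusters passed in either direction. At the unadjusted p of 0.01 that the study's methods name for array genes, 9 members were higher (Gclm, Gss, Slc7a11, Gpx3, Mgst1, Gsta4, Cat, Nqo1 and Hmox1) and 1 was lower (Gstt1). Over all clusters 3.14% were higher and 1% lower at it, 4.14% in all, or 4.57% of those with 1 gene symbol. The median difference of the members was 0.21 on the log2 scale, with 30 of 38 above 0, against 0.04 and 60.85% over all clusters. Without the covariate the median was -0.13, 17 of 38 were above 0, no member passed the adjusted threshold, where 0.00288% of clusters did, and 1 was higher (Gss) and 1 lower (Gstt1) at the unadjusted one, where 1.05% did. The adjusted count also depended on single mice. It was 2 without DOXO replicate 3 (0.152% of clusters) and 3 without DOXO replicate 6 (0.193%). It was 1 without FA-sham replicate 4 (0.167%) or FA-DOXO replicate 6 (0.0921%). It was 6 without sham replicate 4, the only narrow sham array, and 0 without any of the other 15 mice (0.00288% to 0.0863%). Without sham replicate 4 the calls over all clusters also grew, to 960 (2.76%), against 59 with every mouse. The unadjusted count of 10 became 5 without sham replicate 2, where 2.53% of clusters passed, and 6 without DOXO replicate 5, where 2.74% did.

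**Figure D2:**
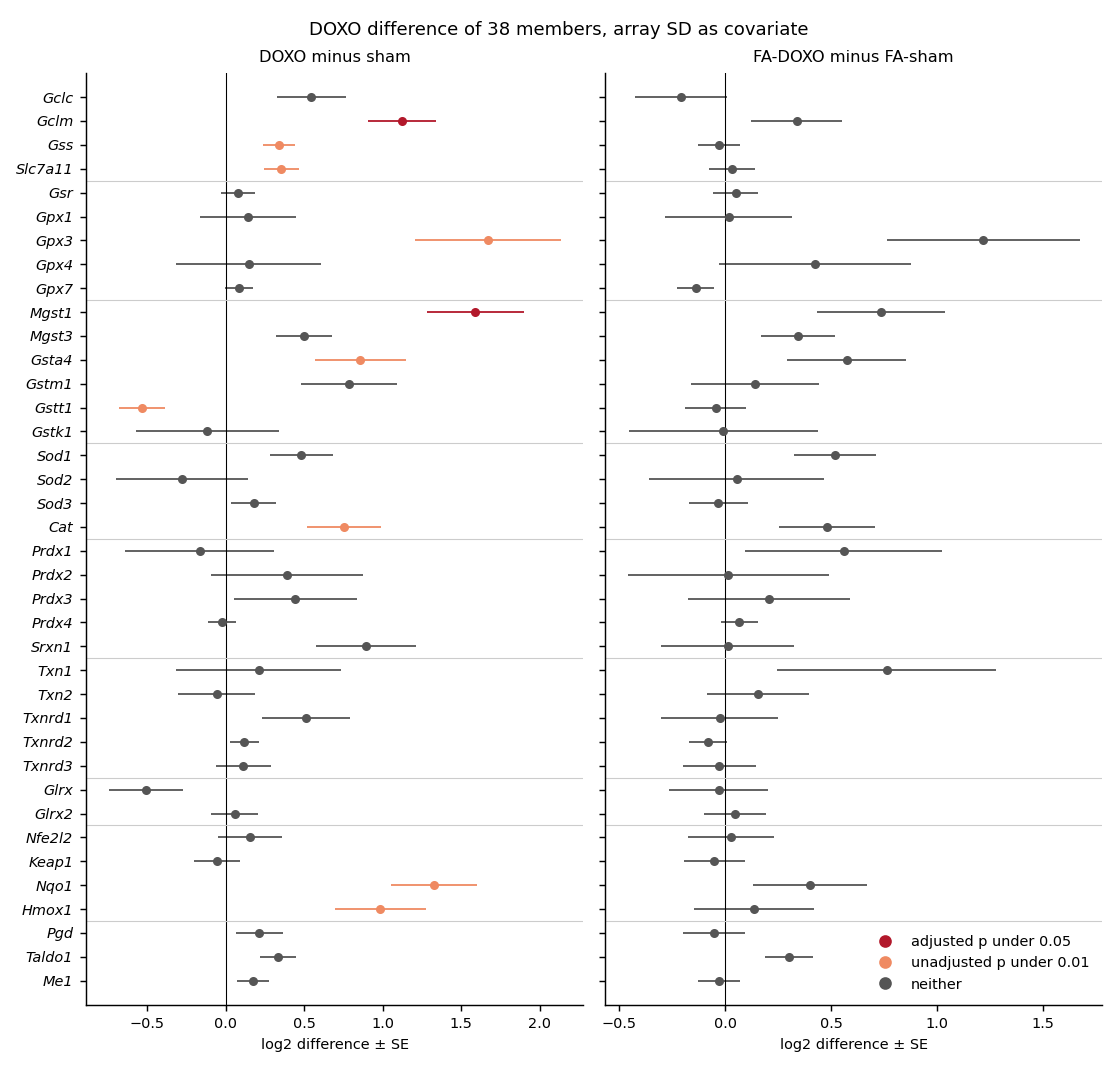
Log2 difference ± SE (x axis) of each of the 38 members in the fit with the array SD, for DOXO minus sham (left) and FA-DOXO minus FA-sham (right), with members grouped by role down the y axis. On the left, Gclm at 1.12 and Mgst1 at 1.59 pass the adjusted threshold and 8 more members the unadjusted one, and on the right none passes either.

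Within glutathione synthesis and uptake, 3 of 4 members were higher at the unadjusted threshold, where 3.14% of all clusters were, and Gclm rose. All 4 were above 0, with a median of 0.45. Between FA-sham and sham all 4 were above 0 as well, with the same median of 0.45 and none past a threshold. The Gclm signal at the mean array SD spanned 7.60 to 8.67, with a median of 7.95, in the 6 DOXO mice, against 6.77, 6.45, 6.92 and 7.44 in the 4 sham mice. All DOXO values lay above all sham values. Of the members, the same held at the mean array SD for Mgst1, Nqo1 and Taldo1, and how many of all clusters do so was not counted. The difference was 1.12 ± 0.22 (SE), 2.18-fold, with an adjusted p of 0.0444. On the deposited scale the Gclm groups overlapped, with 6.60 to 10.86 in DOXO and 6.61 to 8.71 in sham, and the difference was 0.38 (adjusted p = 0.789) without the covariate. It was 2.14 among the wide arrays (2 DOXO, 3 sham) and 0.50 among the narrow ones (4 DOXO, 1 sham).

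Gss, which adds glycine to complete glutathione, spanned 6.96 to 7.29 in DOXO (median 7.05), against 6.56, 6.59, 6.74 and 7.15 in sham. The difference was 0.34 ± 0.10 (SE, adjusted p = 0.183) and 0.33 without the covariate (adjusted p = 0.647), and it was -0.14 among the narrow arrays. Sham replicate 4 lay inside the DOXO range and the other 3 sham mice below it. Slc7a11, the cystine carrier that feeds glutathione synthesis, had a low mean signal of 6.08, brighter than 22.6% of clusters, and differed by 0.35 ± 0.11 (SE, adjusted p = 0.194). It spanned 5.87 to 6.49 in DOXO, median 6.13, against 5.72, 5.56, 5.90 and 6.00 in sham. Gclc, the catalytic ligase subunit, differed by 0.55 ± 0.22 (SE, adjusted p = 0.311), with 1 DOXO mouse at 8.10 and the other 5 at 6.64 to 7.09, against 6.32 to 6.78 in sham.

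Among glutathione reductase and the peroxidases, 1 of 5 members passed the unadjusted threshold, where 4.14% of all clusters did. Gpx3, the peroxidase secreted into plasma, spanned 8.17 to 10.26 in DOXO (median 9.03), against 8.31, 6.69, 7.21 and 7.44 in sham. The groups overlapped only through sham replicate 1 and the lowest DOXO mouse. The difference of 1.67 ± 0.46 (SE, adjusted p = 0.151) was 2.22 among the wide arrays and 1.89 among the narrow ones, and 0.54 (adjusted p = 0.805) without the covariate. For Gsr, Gpx1, Gpx4, which acts on lipid peroxides in membranes, and Gpx7, a peroxidase of the endoplasmic reticulum, the differences lay between 0.08 and 0.15. Their 95% intervals ran from -0.15 to 0.31 for Gsr but from -0.82 to 1.12 for Gpx4, so a Gpx4 change in either direction within that interval was not excluded.

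Of 6 glutathione transferases, Mgst1 rose, Gsta4 was higher and Gstt1 lower at the unadjusted threshold, where 3.14% of all clusters were higher and 1% lower. Mgst1 spanned 7.59 to 8.85 in DOXO (median 8.08), against 7.08, 5.95, 5.99 and 7.15 in sham, with no overlap. The difference was 1.59 ± 0.31 (SE), 3.01-fold, with an adjusted p of 0.0444, and 0.78 (adjusted p = 0.668) without the covariate. It was 2.56 among the wide arrays and 0.97 among the narrow ones. On the deposited scale the Mgst1 groups overlapped, with 6.50 to 10.79 in DOXO and 6.26 to 8.32 in sham. Gsta4, an alpha-class enzyme that conjugates hydroxynonenal from oxidised lipids, spanned 8.62 to 9.68 in DOXO, median 8.98, against 8.74, 7.67, 7.95 and 8.31 in sham. Its difference was 0.86 ± 0.29 (SE, adjusted p = 0.226). Gstt1, a theta-class transferase, spanned 6.10 to 6.66 in DOXO (median 6.55), against 7.11, 7.15, 7.01 and 6.58 in sham, a difference of -0.53 ± 0.15 (SE, adjusted p = 0.151). Sham replicate 4 again lay within the DOXO range, and among the narrow arrays, where it is the only sham mouse, the Gstt1 difference was 0.02. Mgst3 differed by 0.50 ± 0.18 (SE, adjusted p = 0.256), Gstm1 by 0.79 ± 0.31 (SE, adjusted p = 0.293) and Gstk1, of mitochondria and peroxisomes, by -0.12 ± 0.46 (SE). Gstm1 has close mu-class relatives that an array may not separate, so its value is uncertain.

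**Figure D3:**
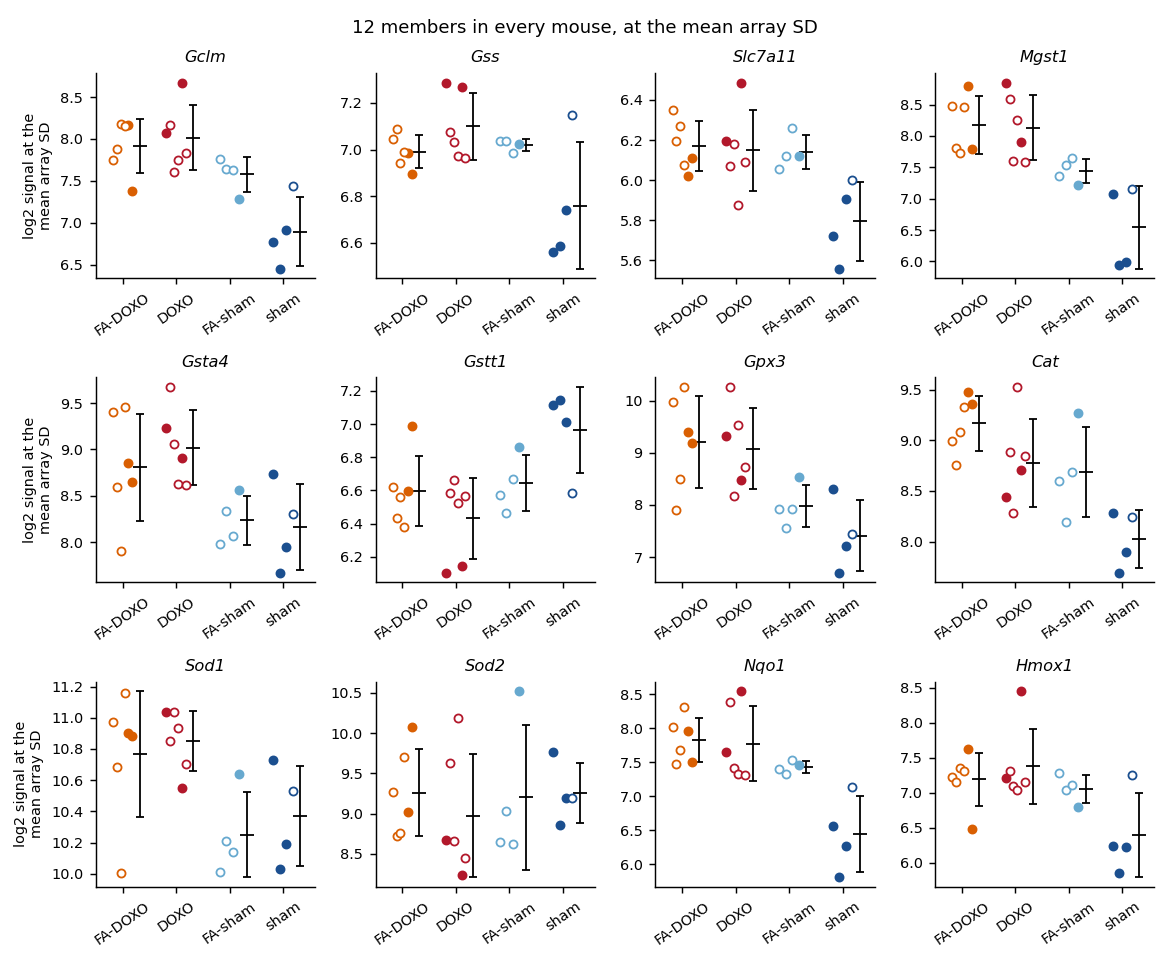
Log2 signal at the mean array SD (y axis) of 12 members in every mouse, grouped as FA-DOXO, DOXO, FA-sham and sham (x axis), where wide arrays are filled, narrow arrays are open and a bar gives the mean ± SD of each group. At the mean array SD all 6 DOXO mice lie above all 4 sham mice for Gclm, Mgst1 and Nqo1, but not on the deposited scale. How many of all clusters do so was not counted. The narrow sham array lies at the top of the sham group for Gclm, Mgst1, Nqo1 and Hmox1.

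Of catalase and the 3 superoxide dismutases, which remove hydrogen peroxide and superoxide, Cat was higher at the unadjusted threshold, where 3.14% of all clusters were. None passed the adjusted one. Cat spanned 8.28 to 9.53 in DOXO (median 8.78), against 8.28, 7.69, 7.89 and 8.25 in sham, a difference of 0.75 ± 0.23 (SE, adjusted p = 0.194). Its direction rested on the covariate, since it was -0.36 (adjusted p = 0.86) without it, although it was 1.33 among the wide arrays and 0.79 among the narrow ones. Sod1, the cytosolic enzyme, had 10.55 to 11.04 in DOXO (median 10.89), against 10.73, 10.03, 10.19 and 10.53 in sham, and differed by 0.48 ± 0.20 (SE, adjusted p = 0.317). Sod2, the mitochondrial enzyme, had 8.24 to 10.19 in DOXO (median 8.66), against 9.76, 8.86, 9.19 and 9.20 in sham, and differed by -0.28 ± 0.42 (SE, adjusted p = 0.836). The 95% interval for Sod2 ran from -1.17 to 0.60. On the deposited scale Sod2 averaged 9.24 ± 1.97 (SD, n = 6) in DOXO and 10.63 ± 1.90 (n = 4) in sham. Deposited Sod1 averaged 10.95 ± 0.72 (SD, n = 6) in DOXO and 10.85 ± 0.51 (n = 4) in sham, so the size of both differences depended on the covariate. Sod3, the extracellular enzyme, differed by 0.18 ± 0.14 (SE, adjusted p = 0.642), with 6.43 to 7.08 in DOXO (median 6.73), against 6.16, 6.85, 6.44 and 6.68 in sham.

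Of the peroxiredoxins with sulfiredoxin, the thioredoxins with their reductases and the glutaredoxins, 0 of 12 members passed either threshold between DOXO and sham, a count that lies near the 4.14% of all clusters past the unadjusted one. Nearest was sulfiredoxin (Srxn1), which repairs overoxidised peroxiredoxins, with a difference of 0.89 ± 0.32 (SE, adjusted p = 0.253). In it, DOXO replicate 5 stood at 8.72 and the other 5 DOXO mice at 6.52 to 7.15, against 5.94 to 6.85 in sham. Txnrd1, the cytosolic thioredoxin reductase, differed by 0.51 ± 0.28 (SE) and also had its highest DOXO value in replicate 5. Mitochondrial members gave 0.44 ± 0.39 for Prdx3, -0.06 ± 0.25 for Txn2 and 0.12 ± 0.09 for Txnrd2 (SE). Glrx, a cytosolic glutaredoxin, differed by -0.51 ± 0.24 (SE, adjusted p = 0.382). Sham replicate 1 held the highest Glrx value, 8.33, against 7.13 to 7.31 in the other 3 sham mice.

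NRF2 itself (Nfe2l2) differed by 0.15 ± 0.21 and Keap1 by -0.06 ± 0.15 (SE). Both classic targets were higher at the unadjusted threshold, where 3.14% of all clusters were. Nqo1, a quinone reductase, spanned 7.31 to 8.55 in DOXO (median 7.54), against 6.56, 5.81, 6.28 and 7.14 in sham. All DOXO values lay above the sham values, and the difference was 1.33 ± 0.27 (SE), with an adjusted p of 0.0559. It was 2.45 among the wide arrays, 0.60 among the narrow ones and 0.44 (adjusted p = 0.792) without the covariate. On the deposited scale the Nqo1 groups overlapped, with 6.11 to 11.15 in DOXO and 6.16 to 8.42 in sham. Hmox1, which breaks down haem, spanned 7.04 to 8.46 in DOXO, median 7.18, against 6.25, 5.86, 6.23 and 7.26 in sham, a difference of 0.98 ± 0.29 (SE, adjusted p = 0.174). DOXO replicate 5 was the highest mouse and sham replicate 4 lay among the other DOXO mice, and the narrow arrays alone gave -0.07. Of the enzymes that supply NADPH, transaldolase (Taldo1) differed by 0.33 ± 0.12 (SE, adjusted p = 0.241), Pgd by 0.21 ± 0.15 and malic enzyme Me1 by 0.17 ± 0.10 (SE), none past a threshold.

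**Figure D4:**
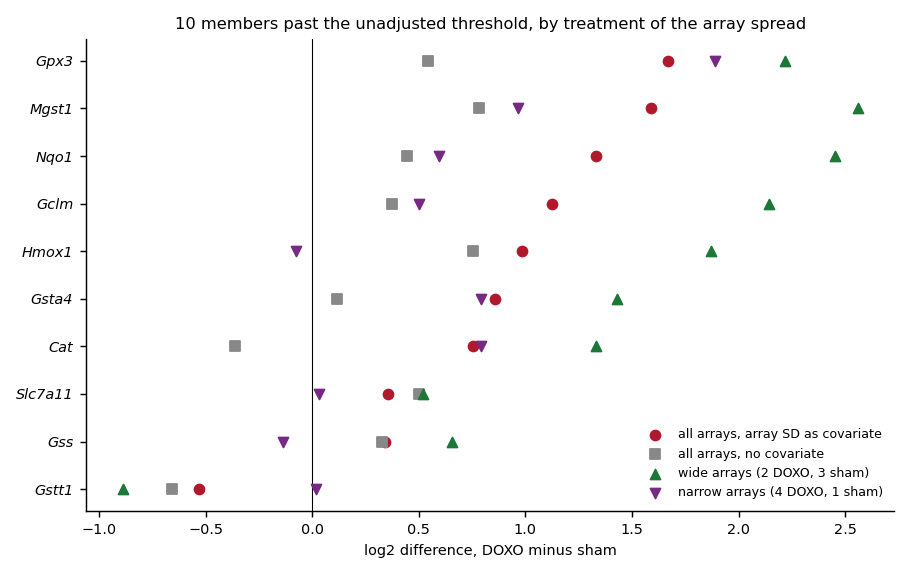
Log2 difference of DOXO minus sham (x axis) for the 10 members past the unadjusted threshold, from the fit with the array SD (circles), without it (squares), and among the wide (upward triangles) or narrow (downward triangles) arrays alone. Gpx3, Mgst1, Nqo1, Gclm, Gsta4 and Slc7a11 stay above 0 under all 4, whereas Cat lies at -0.36 without the covariate, and Gss, Hmox1 and Gstt1 lie within 0.14 of 0 and on the other side of it among the narrow arrays, which hold 1 sham mouse.

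The same question was asked among mice given FA. Between FA-DOXO and FA-sham no member passed the adjusted threshold, where 0.0259% of clusters did, and none passed the unadjusted one, where 1.07% did. Without the covariate the counts were also 0, where 0.00288% and 0.268% of clusters passed. The lowest p values were 0.0154 for Gpx3, with a difference of 1.22 ± 0.46 (SE), 0.0157 for Sod1, with 0.52 ± 0.19, and 0.0158 for Taldo1, with 0.30 ± 0.11. Mgst1 differed by 0.74 ± 0.30 (SE, adjusted p = 0.978), with 7.73 to 8.80 in FA-DOXO (median 8.13), against 7.35, 7.54, 7.64 and 7.22 in FA-sham. These Mgst1 groups did not overlap at the mean array SD, but did on the deposited scale, with 6.39 to 10.22 in FA-DOXO and 6.11 to 7.48 in FA-sham. How many of all clusters are without overlap was not counted. Gclm differed by 0.34 ± 0.21 (SE), with 7.38 to 8.18 in FA-DOXO (median 8.02), against 7.77, 7.64, 7.63 and 7.28 in FA-sham, which overlapped. Nqo1 gave 0.40 ± 0.27, Hmox1 0.14 ± 0.28 and Cat 0.48 ± 0.23 (SE). The member median was 0.05, against -0.02 over all clusters, and 25 of 38 were above 0, where 43.95% of clusters were. Without the covariate the member median was 0.40, against -0.04 over all clusters, and 32 of 38 were above 0, where 41.35% of clusters were. The size of this shift thus depended on the covariate. The unadjusted count reached 5 without FA-DOXO replicate 3, where 1.03% of clusters passed, and 3 without FA-sham replicate 4, where 1.33% did. It was 1 without FA-DOXO replicate 2 (0.909%) or replicate 6 (0.849%).

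Averaged over both diets, Mgst1 rose with DOXO by 1.16 ± 0.21 on the log2 scale (SE, adjusted p = 0.0273), the 1 member of 38 past that threshold, where 0.227% of clusters passed. A further 8 members were higher at the unadjusted threshold, 9 in all, where 2.01% of clusters were higher and 2.83% passed in either direction, and none was lower. They were Gclm (0.73 ± 0.15, adjusted p = 0.0549), Nqo1 (0.86 ± 0.19, adjusted p = 0.0764), Gpx3 (1.44 ± 0.32), Taldo1 (0.32 ± 0.08), Cat (0.62 ± 0.16), Sod1 (0.50 ± 0.14), Gsta4 (0.72 ± 0.20) and Mgst3 (0.42 ± 0.12), each ± SE. Sod1, Taldo1 and Mgst3 had missed the threshold in the placebo mice alone. Without the covariate none of the 38 passed either threshold, where 0.0115% and 0.506% of clusters did, and the Mgst1 difference was 0.99. Leaving out 1 mouse gave 4 adjusted calls without sham replicate 4, where 0.941% of clusters passed. It gave 2 without DOXO replicate 3 or FA-DOXO replicate 2, 3 or 6, where 0.15% to 0.219% did. It gave 1 without sham replicate 1, DOXO replicate 1, 5 or 6 or FA-DOXO replicate 1, where 0.161% to 0.187% did. It gave 0 without any of the other 10 mice, where 0.0115% to 0.141% did.

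FA-DOXO was then set against DOXO. No member passed the adjusted threshold, and neither did any cluster (0%), although 386 clusters passed the unadjusted one. Gpx7 was the 1 member past the unadjusted threshold, where 1.11% of clusters passed and 0.273% were lower. It spanned 6.01 to 6.33 in FA-DOXO (median 6.23), against 6.24 to 6.58 in DOXO (median 6.45), so the groups overlapped. The difference was -0.22 ± 0.08 (SE, adjusted p = 0.839) and -0.22 without the covariate. The call was lost without any of 15 of the 20 mice, namely sham replicates 2, 3 and 4, FA-sham replicates 1, 2 and 3, DOXO replicates 1, 2, 3 and 5 and FA-DOXO replicates 1, 2, 3, 5 and 6, and the count was 2 without DOXO replicate 4. For the 4 members with the largest differences between DOXO and sham, the group means differed by less than the SD of either group, with Gpx3 at 9.21 ± 0.89 in FA-DOXO and 9.08 ± 0.77 in DOXO, Mgst1 at 8.18 ± 0.46 in FA-DOXO and 8.13 ± 0.52 in DOXO, Gclm at 7.92 ± 0.32 in FA-DOXO and 8.02 ± 0.38 in DOXO, and Nqo1 at 7.83 ± 0.33 in FA-DOXO and 7.77 ± 0.55 in DOXO (SD, n = 6 each). Cat had 9.17 ± 0.27 in FA-DOXO and 8.78 ± 0.44 in DOXO, a difference of 0.39 ± 0.21 (SE, adjusted p = 0.839) with a 95% interval from -0.05 to 0.82, and it was -0.34 without the covariate. Sod1 stood at 10.77 ± 0.40 in FA-DOXO and 10.85 ± 0.19 in DOXO, Sod2 at 9.26 ± 0.54 in FA-DOXO and 8.97 ± 0.76 in DOXO, and Sod3 at 6.59 ± 0.19 in FA-DOXO and 6.71 ± 0.24 in DOXO (SD, n = 6 each). Deposited Sod2 had the opposite order, averaging 8.80 in FA-DOXO and 9.24 in DOXO. The member median was 0.04 with the covariate, with 24 of 38 above 0, against 0.01 and 54.24% over all clusters. Without it the median was -0.32, with 3 of 38 above 0, against 0.03 and 58.06% over all clusters.

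FA alone was assessed by setting FA-sham against sham. No member and no cluster (0%) passed the adjusted threshold, where the unadjusted one was passed by 635 clusters. At the unadjusted one Nqo1 was higher, 1 member of 38, where 1.83% of clusters passed and 1.65% were higher. It stood at 7.41, 7.33, 7.54 and 7.46 in FA-sham, against 6.56, 5.81, 6.28 and 7.14 in sham, with no overlap at the mean array SD. Of the members, all FA-sham values also lay above all sham values for Gclc, Slc7a11 and Mgst1, and how many of all clusters do so was not counted. The deposited Nqo1 values overlapped, with 6.04 to 7.73 in FA-sham and 6.16 to 8.42 in sham. The Nqo1 difference was 0.99 ± 0.33 (SE, adjusted p = 0.531), but -0.99 (adjusted p = 0.407) without the covariate, -0.28 among the wide arrays and 0.01 among the narrow ones. FA-sham and sham also differed most in array SD, with means of 0.958 and 1.27, and the share of the covariate in this difference cannot be told apart from FA. Gclm (0.69 ± 0.26), Mgst1 (0.90 ± 0.37) and Cat (0.66 ± 0.28) leaned the same way with the covariate, none past a threshold (SE), and gave -0.98, -0.90 and -1.82 without it. The members as a set also reversed. With the covariate their median was 0.19 and 30 of 38 were above 0, against 0.07 and 67.79% over all clusters. Without it the median was -0.99 and 6 of 38 were above 0, against 0.19 and 62.49% over all clusters. Without the covariate 2 other members passed the unadjusted threshold, Slc7a11 higher at 0.67 and Glrx lower at -1.30, where 4.35% of clusters passed. Without sham replicate 4 the unadjusted count was 7 and the adjusted count 1, where over all clusters 1562 (4.49%) and 56 (0.161%) passed. The unadjusted count was 2 without DOXO replicate 4 (1.69% of clusters) or FA-DOXO replicate 6 (1.73%). It was 0 without sham replicates 1, 2 or 3, FA-sham replicates 1, 3 or 4, DOXO replicates 3, 5 or 6, or FA-DOXO replicates 3 or 5. In those fits 1.42% to 2.24% of clusters passed.

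The interaction, the DOXO difference under FA minus that under placebo, was not called for any member, where no cluster (0%) passed the adjusted threshold and 1.78% passed the unadjusted one. The lowest p values were 0.0209 for Gss, at -0.37 ± 0.15 (SE), and 0.0216 for Gclm, at -0.78 ± 0.31, with 95% intervals from -0.68 to -0.06 and from -1.44 to -0.13. Nqo1 gave -0.93 ± 0.39 (adjusted p = 0.555) and Mgst1 -0.85 ± 0.44 (adjusted p = 0.602). In all, 11 of 38 members had an interaction above 0, against 39.52% of clusters, and the members' median was -0.20 with the covariate and 0.67 without it. A smaller DOXO difference under FA was thus not established for any member. Without sham replicate 4 the unadjusted count was 5, where 1644 clusters (4.73%) passed, against 618 with every mouse, and 4 clusters but no member passed the adjusted threshold.

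**Figure D5:**
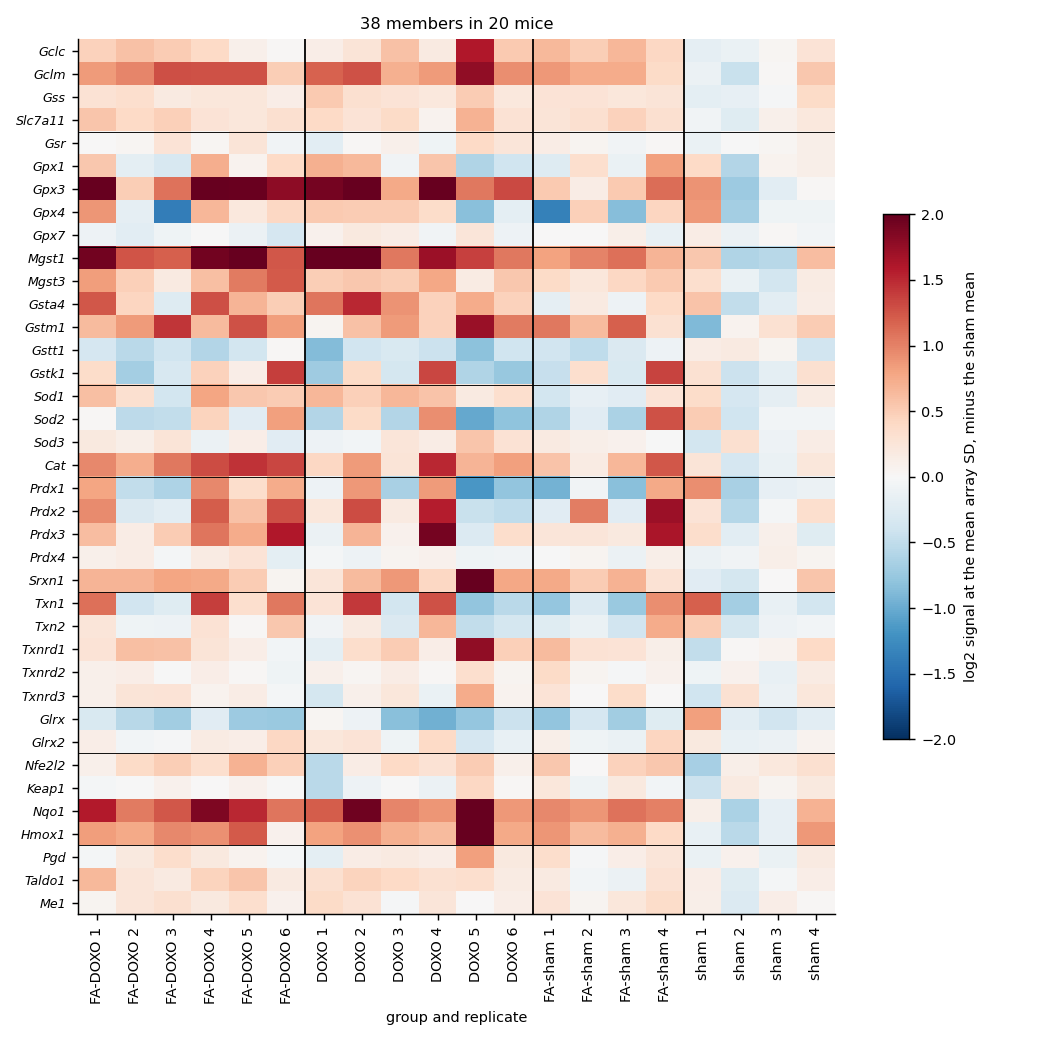
Log2 signal at the mean array SD of the 38 members (rows, grouped by role) in the 20 mice (columns), as the difference from the sham mean, with the colour scale ending at -2 and 2. Mgst1, Gpx3, Gclm and Nqo1 are above the sham mean in all 12 DOXO-treated mice and in the 4 FA-sham mice. The same holds for Gclc, Gss, Slc7a11, Mgst3, Gstm1, Cat, Srxn1 and Hmox1. How many of all clusters do so was not counted.

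Other genes of these pathways, 84 of 90 listed, gave the surroundings. Between DOXO and sham 1 of the 84 rose at the adjusted threshold, where 0.17% of all clusters passed. At the unadjusted one 10 were higher and 1 was lower, where 3.14% of clusters were higher and 1% lower. Ephx1, the microsomal epoxide hydrolase and a known NRF2 target, rose by 0.80 ± 0.13 (SE, adjusted p = 0.0263), with 7.35 to 7.83 in DOXO (median 7.62) at the mean array SD, against 6.45 to 7.12 in sham. Sqstm1, an autophagy receptor that binds KEAP1, gave 1.24 ± 0.25 (SE, adjusted p = 0.0552), with 8.78 to 9.58 in DOXO, against 7.31 to 8.40 in sham. Gstm2, a mu-class transferase, gave 0.89 ± 0.18 (SE, adjusted p = 0.0517), and Slc3a2, the partner chain of Slc7a11 in the cystine carrier, 0.95 ± 0.21 (SE, adjusted p = 0.0777). Without the covariate these 4 were at 0.10, 0.15, 0.22 and 0.27. Of 27 further glutathione genes 7 were higher (Gsta3, Gstm2, Gstm3, Gstm4, Gsto2, Slc3a2 and Esd), where 3.14% of all clusters were, and of 21 further thioredoxin-fold and repair genes none passed. As with Gstm1, an array may not separate the mu-class genes Gstm2, Gstm3 and Gstm4, so these may not be separate calls. Averaged over both diets, Ephx1 (0.53 ± 0.09), Sqstm1 (0.98 ± 0.17) and Gstm2 (0.64 ± 0.12) rose (SE, adjusted p = 0.0232, 0.0273 and 0.0401), 3 of 84, where 0.227% of clusters passed. In the other 4 comparisons the counts at the unadjusted threshold, 1 or 2 of 84, lay near the share of all clusters, 1.07% to 1.83%. Between FA-DOXO and FA-sham, Sqstm1 was the 1 gene past the unadjusted threshold, at 0.72 ± 0.25 (SE, adjusted p = 0.922). Between FA-DOXO and DOXO it was Cul3, the scaffold of the ligase that KEAP1 serves, at 0.35 ± 0.11 (SE, adjusted p = 0.839), and -0.19 without the covariate. Between FA-sham and sham Ephx1 (0.70 ± 0.16, adjusted p = 0.464) and Pon2 (0.35 ± 0.11, adjusted p = 0.516) were higher (SE), and they were at -0.86 and -0.48 without the covariate. Ephx1 alone passed the unadjusted threshold for the interaction, at -0.54 ± 0.19 (SE, adjusted p = 0.5375), and it was 0.56 without the covariate.

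At the unadjusted threshold some markers of other cells also differed between DOXO and sham, and none passed the adjusted one (lowest adjusted p = 0.0618). Over all clusters 3.14% were higher and 1% lower. Of the markers, 5 of 10 neutrophil markers (S100a8, S100a9, Ngp, Retnlg and Mmp8) and 3 of 10 macrophage markers (Cd68, C1qa and Lyve1) were higher, 1 of 9 erythroid markers (Alas2) was lower and 1 of 9 lymphocyte markers (Cd3g) was higher. None of the 10 cardiomyocyte, 10 endothelial, 9 fibroblast or 8 adipocyte markers passed it. Without the covariate 5 neutrophil markers were higher and 1 erythroid marker lower, where 1.05% of clusters passed in either direction. No macrophage or lymphocyte marker passed without it, and the macrophage median was 0.02 instead of 0.22. The mean signal of the neutrophil list at the mean array SD was 6.34 to 6.87 in DOXO, against 5.68 to 6.36 in sham, and none of its 10 markers had a sham mean above the array median. The macrophage list was at 6.98 to 7.05 in DOXO, against 6.79 to 6.91 in sham, and the cardiomyocyte list at 9.82 to 11.31 in DOXO, against 10.11 to 10.73 in sham. FA-sham mice, given no doxorubicin, were at 6.97 to 7.03 for the macrophage and 6.23 to 6.41 for the neutrophil list. Between FA-sham and sham all 10 markers of each of these 2 lists were above 0, where 67.79% of all clusters were. Without the covariate all 10 neutrophil markers but 1 of 10 macrophage markers were above 0, where 62.49% of all clusters were. The part of these cells in the members' differences was not tested.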

How the data were processed

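Left ventricle RNA of 20 mice was hybridised to 1 array each, and groups came from the sample labels. The authors deposited log2 signals per transcript cluster, made with R 2.14.2 and Bioconductor packages according to their processing notes and methods. How background was corrected, arrays normalized and probes summarised is not given in the sources used here. Array medians lay between 6.24 and 6.66, but the spread of the arrays differed, and this spread enters every difference between groups. The number of arrays limits the precision, and no 2 arrays held identical values.

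A mean per group and the centred array SD were fitted over the 20 arrays to each of 34760 clusters, using limma 3.58.1 (R 4.3.3) with two-sided moderated tests and Benjamini-Hochberg adjustment over all clusters. Thresholds were an adjusted p of 0.05 and the methods' unadjusted p of 0.01, in 6 comparisons. The array section of the methods names that threshold and the software but no test, and a general statement there, of two-way analysis of variance for all data, may cover the arrays. "Rose" and "fell" are used for the adjusted threshold only. Array SDs were compared by exact permutation in SciPy 1.17.1, and figures drawn with matplotlib 3.10.9. The platform annotation gave 21640 clusters 1 gene symbol, 1321 several and 11799 none. Members are given in every group where they passed either threshold in any comparison or had 1 of its 3 smallest p values, with the dismutases, Gss and Gclm in any case. Of the other pathway genes, up to 4 per comparison are given with values. The members, the lists and the use of the array SD were chosen with earlier results of these data known. Promoter windows are from RefSeq (GRCm38.p6). The fit was run on data simulated from the fitted model itself, which checks the calculation and not whether a shared slope holds in these arrays. Alternatives covered the covariate, a block for wide and narrow arrays or either kind alone, quantile normalization, median centring, moderation, a filter at the 20th percentile of mean signal, averaging a gene's clusters, the compared groups only, a block for replicate numbers, and leaving out single mice. No label says how the replicates relate beyond being separate samples, so p-values measure the spread between these samples.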

Additional observations from a re-analysis of the deposited data

Results flagged for a closer look

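In 68 groups of named members tested for a sample far from the others on the deposited log2 scale, 7 held one, where chance gives about 1 in 20. Of these, 4 were the same array, FA-sham replicate 4, the only wide array of its group. It had 8.88 for Gpx3 (nearest other FA-sham mouse 6.27), 8.37 for Mgst3 (7.15), 9.62 for Cat (6.93) and 7.73 for Nqo1 (6.31). Sham replicate 4, the only narrow sham array, was lowest for Sod1 at 10.1 (nearest 11.01). Wide arrays also held the highest Gclc signal in DOXO, replicate 5 at 8.78 (nearest 7.20), and the highest Hmox1 signal in FA-DOXO, replicate 5 at 8.03 (nearest 7.08).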

How the results depend on the processing

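Over 24 differences of named members and 33 alternatives, 783 values were computed. Of these, 626 kept their direction and side of the unadjusted threshold, 147 kept the direction but lost the threshold, 2 gained it and 8 changed sign. Cat between DOXO and sham was -0.36 without the covariate and -0.030 after quantile normalization. Among narrow arrays alone Gss was -0.14, Gstt1 0.020 and Hmox1 -0.074. Nqo1 between FA-sham and sham was -0.99 without the covariate, -0.28 among wide arrays and -0.77 after quantile normalization. The cause was not tested.

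Of the 2 members past the adjusted threshold between DOXO and sham, where 0.17% of all clusters passed, 0 were left under several alternatives. Those were no covariate, the interquartile range as covariate, a wide and narrow block and quantile normalization, where 0.00288% of clusters passed in each. The others were median centring, where 0.112% passed, and the compared groups only, where 0.00575% did. The unadjusted count of 10, where 4.14% of clusters passed, became 2 without the covariate (1.05% of clusters) or after quantile normalization (0.995%). It became 6 with the wide and narrow block (1.54%) or the compared groups only (1.58%). Averaged over diets, the adjusted count of 1 (0.227% of clusters) became 0 without the covariate (0.0115%) and with the interquartile range (0.046%). It also became 0 with the block (0.0547%) and after quantile normalization (0.023%). The unadjusted 9 (2.83% of clusters) became 0 without the covariate (0.506%) and 1 after quantile normalization (0.696%). Between FA-DOXO and FA-sham the unadjusted 0 (1.07% of clusters) became 1 with the block (0.866%) and 1 with median centring (1.09%). Between FA-DOXO and DOXO the unadjusted 1 (1.11% of clusters) became 0 without the covariate (0.158%) and with the block (0.716%). It was 0 also after quantile normalization (0.25%) and with the compared groups only (1.22%). Between FA-sham and sham the unadjusted 1 (Nqo1, where 1.83% of clusters passed) became 2 without the covariate (Slc7a11 and Glrx, where 4.35% did). It became 0 after quantile normalization (2.45%), with median centring (1.13%) and with the compared groups only (0.547%). The interaction count of 0 at the unadjusted threshold (1.78% of clusters) became 1 with the interquartile range (1.59%).

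Leaving out 1 mouse gave 0 to 6 adjusted and 5 to 12 unadjusted calls between DOXO and sham. Over all clusters 0.00288% to 2.76% and 2.53% to 8.02% then passed. Averaged over diets it gave 0 to 4 and 9 to 13, where 0.0115% to 0.941% and 2.07% to 4.72% passed. The adjusted count was 0 between FA-DOXO and FA-sham, between FA-DOXO and DOXO and for the interaction, and 0 to 1 between FA-sham and sham. The unadjusted count was 0 to 5 between FA-DOXO and FA-sham (0.774% to 1.33% of clusters) and 0 to 2 between FA-DOXO and DOXO (0.633% to 1.41%). It was 0 to 7 between FA-sham and sham (1.42% to 4.49%) and 0 to 5 for the interaction (1.28% to 4.73%). Whether replicate numbers pair the mice could not be decided. Deviations of same-numbered mice correlated between -0.86 and 0.84 on the deposited scale, into which the array spread enters. At the mean array SD they correlated between -0.45 and 0.62. With the replicate block the adjusted count between DOXO and sham was 0 (0.023% of clusters) and the unadjusted 7 (2.21%). The averaged counts were 0 (0.0432%) and 8 (1.82%). The unadjusted counts were 2 between FA-DOXO and FA-sham (0.981%) and 0 between FA-sham and sham (1.56%). A fit with separate slopes on the array SD with and without DOXO was chosen after seeing the data. It gave 0 adjusted (0.0403% of clusters) and 4 unadjusted (1.5%) calls between DOXO and sham, and 3 (0.57%) and 11 (3.2%) averaged over diets. At the unadjusted threshold it gave 2 between FA-DOXO and FA-sham (1.73%), 0 between FA-DOXO and DOXO (1.07%) and 0 between FA-sham and sham (0.898%).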
